A study of Arabidopsis thaliana with 8 samples.

Results

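The genes described here are those of the Arabidopsis thaliana endosperm whose transcript level stepped down from the wild-type cross to the ein2-5 mutant cross, with both reciprocal hybrid crosses lying between. They were chosen from the measured FPKM (a fragment count divided by transcript length and by mapped library size). A gene was taken when its mean over the 8 libraries was at least 10 FPKM, when the higher ein2-5 x ein2-5 library was at most 0.75 times the lower Col-0 x Col-0 library, and when the means of both hybrid crosses fell between the means of those 2 crosses. EIN2 itself and SYTA were left out by name. Of 34133 genes in the table, 12236 reached the mean level and 62 met the whole rule, which is 0.507% of them. The mirrored rule, for genes stepping up, was met by 525 genes, or 4.29%. Both counts depend on library scaling: after division by median-ratio factors, 181 genes met the falling and 340 the rising rule. The difference between the wild-type and the mutant cross is therefore how the 62 genes were picked, and it is given below as a description without a test.

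Seeds were collected 6 days after pollination and the endosperm was cut out by laser capture microdissection. There were 4 crosses with 2 libraries each. Both parents were wild type in Col-0 x Col-0 and both were mutant in ein2-5 x ein2-5. The reciprocal hybrids were Col-0 x ein2-5 and, in the other direction, ein2-5 x Col-0. The labels do not tell mother from father, and the first-named parent of a cross is read here as the mother. On that reading Col-0 x ein2-5 is called the paternal hybrid, since its mutant allele comes from the father, and ein2-5 x Col-0 the maternal hybrid, while the crosses within a genotype are called the wild-type cross and the mutant cross. All plants were grown in long days at one temperature, flowers were emasculated before hand pollination, and the labels name no treatment besides the crosses. The labels do not say whether the libraries of a cross came from separate plants, so the spread behind each p-value is that between libraries and may be technical.

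EIN2 is a membrane protein of the endoplasmic reticulum that carries the ethylene signal from the receptors towards the nucleus, where the EIN3 family of transcription factors acts, and ein2-5 is a mutant allele that leaves plants insensitive to ethylene. The endosperm is the nourishing tissue of the seed. It arises when one sperm cell fuses with the central cell, and it carries a double dose of the maternal genome and a single dose of the paternal genome. Mutant copies of EIN2 are therefore more in the maternal than in the paternal hybrid, if the order of the parents is as taken. At this age the Arabidopsis endosperm passes from a syncytium to walled cells.

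Sequencing depth was recovered in relative terms from genes seen as single fragments, and ran from 0.535 to 1.616 with paternal hybrid replicate 1 set to 1. The lowest was wild-type replicate 1 and the highest mutant replicate 2. EIN2 transcripts were at 35.7 and 54.9 FPKM in the wild-type cross, 31.4 and 50.03 in the paternal hybrid, 26.2 and 22.2 in the maternal hybrid, and 19.7 and 23.7 in the mutant cross. The labels do not say what the lesion does to the transcript, so these levels alone do not check the genotypes. Of 14 endosperm marker genes 12 were tested, while MINI3 and IKU2 reached no more than 1.24 FPKM in any library. The list had a summed level of 1328 to 1608 FPKM in the wild-type cross and 1633 to 2077 in the mutant cross. Seed coat markers were present as well. Their summed level over 14 genes was 616 to 698 FPKM in the wild-type cross, 674 to 811 in the paternal hybrid, 523 to 973 in the maternal hybrid and 1002 to 1471 in the mutant cross, and 1 of the 14 was lower in the mutant than in the wild-type cross. The sum over 11 embryo markers was 636 to 703 FPKM in the wild-type cross and 569 to 584 in the mutant cross. Of 10 tested genes 7 were lower there. Most of that sum was LEC1, a regulator also active in endosperm. LEC1 overlapped between the crosses, at 453 and 393 FPKM in the wild-type cross and 405 and 330 in the mutant cross. ATML1 was higher in the mutant cross, at 32.3 and 30.2 FPKM beside 9.78 and 13.6. No marker of the 3 lists was at 0 in every library, and none was called between the wild-type and the mutant cross, where 0.0101% of all genes were called. The part of these shifts in the results below was not tested, and in bulk tissue fewer cells of a type and less RNA per cell cannot be told apart.

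The 62 genes comprised 54 protein-coding genes, 4 pseudogenes, 1 long non-coding RNA gene, 1 microRNA gene and 2 organelle genes that the reference annotation used here does not list. They were spread over all chromosomes, with 10, 12, 10, 11 and 17 genes on chromosomes 1 to 5, and, by their identifiers, 1 on the plastid and 1 on the mitochondrial genome. No 2 of them lay within 5 genes of each other, and none lay within 50 genes of EIN2. Their transcripts were short. The median length was 1088 nt over the 60 with an annotated length, beside 1603 nt over all genes with a mean of at least 10 FPKM. Over the 35 members with an estimated 10 or more fragments in every library the median was 1479 nt, nearer to that background. Of the 60, 15 were shorter than 500 nt, against 2.63% of that background. A short transcript gives a high FPKM from few fragments, so the evidence behind the 62 genes was uneven.

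At the weak end stood 7 genes listed at 0 in both mutant libraries. These were AT2G35743, MIR853 (a microRNA precursor gene), AT3G43572, AT4G08028 (annotated as an Hsp40-type chaperone), AT4G26055, AT4G36791 and AT5G64401. Each was estimated at 1 fragment at most in any library. MIR853, for example, stood at 43.3 and 16.6 FPKM in the wild-type cross, 23.0 and 0 in the paternal hybrid, 0 and 25.9 in the maternal hybrid, and 0 in both mutant libraries. Its non-zero values are what 1 fragment was worth in 4 libraries of different depth. AT5G64401 had 336 FPKM in wild-type replicate 2 and 0 in the other 7 libraries. AT2G35743, AT4G26055 and AT5G64401 were also at 0 in a wild-type library, so the rule was met as 0 against 0. A gene at this depth could not have been told from an unchanged one, and medians are given below over the 53 genes that were above 0 in every library. AT5G35792.1 and AT4G13996, both pseudogenes, were at 0 in a mutant library and had at most 9 fragments anywhere.

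The other 53 genes were above 0 in all 8 libraries. Their mutant mean was 0.269 to 0.711 times their wild-type mean, with a median of 0.529. Of these, 35 had an estimated 10 or more fragments in every library, and their ratio ran from 0.379 to 0.711 with a median of 0.58. The lowest ratio of all 53 belonged to AT4G17718, a defensin-like peptide gene, and the highest to AT2G21195, of unknown function. In the plot of ratio against fragments, ratios under 0.37 are found only among genes with fewer than 10 fragments in some library.

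**Figure D1:**
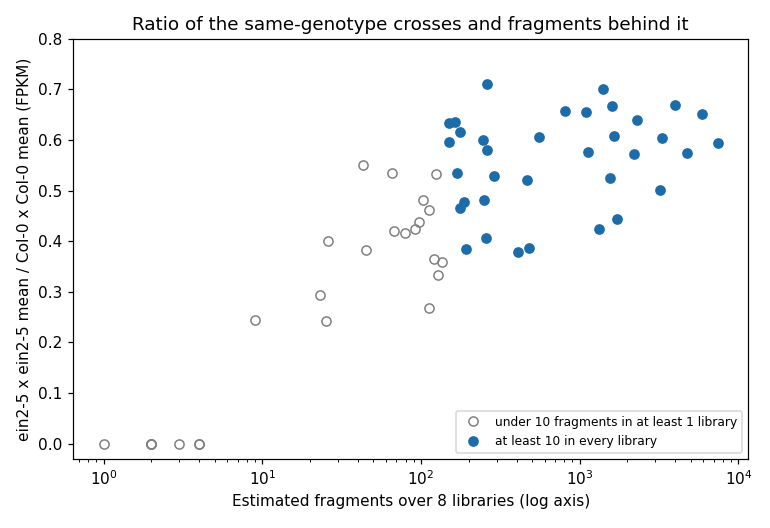
Ratio of the ein2-5 x ein2-5 mean to the Col-0 x Col-0 mean (FPKM) against the estimated fragments summed over 8 libraries (log axis), 1 point per gene for the 60 genes with an estimate. Filled points have at least 10 fragments in every library and run from 0.379 to 0.711, while the points at a ratio of 0 rest on single fragments.

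Among the 53, 5 genes encode small secreted peptides, with ratios of 0.269 to 0.596, which include the lowest of all 53. Plants secrete many short cysteine-rich peptides, among them defensins and the low-molecular-weight cysteine-rich (LCR) family, and several families are made chiefly in reproductive tissues. There were 4 defensin-like or LCR genes among the 62, or 6.45%, beside 0.68% of annotated genes with a mean of at least 10 FPKM; this class was added after the members were known. LCR62 (AT2G29045) stood at 946 and 444 FPKM in the wild-type cross, 417 and 563 in the paternal hybrid, 286 and 251 in the maternal hybrid, and 193 and 313 in the mutant cross. Both maternal hybrid libraries lay below both paternal hybrid libraries and within the range of the mutant cross. Of all genes with a mean of at least 10 FPKM, 21.5% were lower without overlap in this way and 17.4% higher. Such an order, here and in genes below, is therefore common. LCR16 (AT1G49435) had 903 and 505 FPKM in the wild-type cross, 425 and 568 in the paternal hybrid, 296 and 511 in the maternal hybrid, and 190 and 350 in the mutant cross. For AT4G17718 the values were 189 and 210 FPKM, then 121 and 221, then 103 and 125, then 19.9 and 87.4, in the same order of crosses. The replicates of these 3 genes spread widely, which goes with their depth. LCR62 rested on 7 to 23 fragments per library, LCR16 on 10 to 36 and AT4G17718 on 2 to 29. In both LCR genes the higher wild-type value came from the shallowest library of the 8.

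AT5G59105, another defensin-like gene, was tighter, at 67.8 and 67.3 FPKM in the wild-type cross and 44.9 and 35.6 in the mutant cross, with all 4 hybrid values between, from 45.3 to 66.5. The taximin gene AT2G20562, which encodes a cysteine-rich signal peptide, ran from 49.8 and 57.3 FPKM in the wild-type cross to 16.5 and 35.03 in the mutant cross. These 2 genes, and all genes named below that are not among the 10 most abundant members or otherwise under the naming rule, were chosen after their values were seen, as was the grouping by role.

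RGP3 and ENODL10, the most abundant pair of members, belong to a group of 6 genes of the cell wall and cell surface. The wall of plant cells is built from polysaccharides and glycoproteins, and the endosperm lays down its first walls at about this stage. RGP3 (AT3G08900), a reversibly glycosylated polypeptide of the UDP-arabinose mutase family, which supplies arabinofuranose for wall polymers, was the most abundant of all 62 genes. Its values were 841 and 617 FPKM in the wild-type cross, 628 and 629 in the paternal hybrid, 592 and 662 in the maternal hybrid, and 420 and 447 in the mutant cross. The hybrid libraries of both directions overlapped one another and stood clear of the mutant cross, and each library held 631 to 1283 fragments. ENODL10 (AT5G57920), a phytocyanin-like protein anchored at the cell surface, had 779 and 580 FPKM in the wild-type cross, 586 and 570 in the paternal hybrid, 563 and 622 in the maternal hybrid, and 372 and 408 in the mutant cross.

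RRA1 (AT1G75120), an arabinosyltransferase that decorates extensins, went from 250 and 364 FPKM in the wild-type cross through 222 and 280 in the paternal hybrid and 212 and 238 in the maternal hybrid to 123 and 185 in the mutant cross. EPR1 (AT2G27380), an extensin-like proline-rich wall protein, had 68.2 and 93.2 FPKM, then 56.1 and 103, then 70.9 and 44.8, then 27.0 and 41.4, in the same order. Its hybrid libraries scattered from 44.8 to 103 FPKM, the highest of them above both wild-type libraries. AT5G59170, also extensin-like, had 141 and 164 FPKM in the wild-type cross and 73.0 and 103 in the mutant cross. AT5G25330, annotated as a Core-2/I-branching glycosyltransferase, had 165 and 250 FPKM in the wild-type cross and 60.9 and 124 in the mutant cross, which put it just inside the limit of the rule. Over the 6 genes of this group the ratio of the mutant to the wild-type mean was 0.424 to 0.594.

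Genes of seed reserves and of enzymes acting on reserves or lipids had ratios of 0.605 to 0.701 over 4 genes. The rule chose on this ratio, so groups of genes are not ranked by it. OLEO3 (AT5G51210) encodes an oleosin, a coat protein of oil bodies. It had 570 and 454 FPKM in the wild-type cross, 413 and 413 in the paternal hybrid, 419 and 493 in the maternal hybrid, and 326 and 328 in the mutant cross. Its hybrids did not overlap, and here the maternal hybrid was the higher. AT1G71250, a GDSL-type lipase, had 381 and 420 FPKM in the wild-type cross, 343 and 378 in the paternal hybrid, 331 and 332 in the maternal hybrid, and 232 and 253 in the mutant cross. All 4 of its hybrid libraries lay between the same-genotype crosses, with the maternal hybrid the lower. AT4G04460, an aspartyl protease with a saposin-like insert, had 495 and 434, 391 and 437, 383 and 432, and 306 and 300 FPKM in the same order. ADG1 (AT5G48300), the small subunit of ADP-glucose pyrophosphorylase, which makes the sugar donor for starch, went from 99.8 and 107 FPKM to 72.0 and 73.2, with the hybrids at 85.6 to 96.6.

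The promoters of members were read for the sites of factors that act in ethylene signalling and in seed maturation, over the 250 bases before each annotated gene start. The windows of OLEO3, LCR16 and AT1G71250 are shown because these are the 3 most abundant members with at least 10 fragments in every library that hold an RY element (CATGCA, the site of the LEC2, FUS3 and ABI3 maturation factors) and whose window overlaps no other gene. They are from RefSeq assembly TAIR10.1 at chr5:20819818-20820067 (plus strand), chr1:18299863-18300112 (minus strand) and chr1:26859860-26860109 (plus strand), written 5′ to 3′ along the gene. Capitals mark RY elements and G-boxes (CACGTG, bound by bZIP and bHLH factors), on either strand.
OLEO3: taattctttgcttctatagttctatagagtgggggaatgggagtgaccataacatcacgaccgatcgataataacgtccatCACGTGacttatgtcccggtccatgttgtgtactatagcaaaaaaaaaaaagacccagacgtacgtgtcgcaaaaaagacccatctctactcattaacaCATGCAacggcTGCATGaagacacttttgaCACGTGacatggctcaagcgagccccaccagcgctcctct
LCR16: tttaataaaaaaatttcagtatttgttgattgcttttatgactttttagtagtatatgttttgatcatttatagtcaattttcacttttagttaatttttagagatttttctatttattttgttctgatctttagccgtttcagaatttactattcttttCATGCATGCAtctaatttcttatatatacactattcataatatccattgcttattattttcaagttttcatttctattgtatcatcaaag
AT1G71250: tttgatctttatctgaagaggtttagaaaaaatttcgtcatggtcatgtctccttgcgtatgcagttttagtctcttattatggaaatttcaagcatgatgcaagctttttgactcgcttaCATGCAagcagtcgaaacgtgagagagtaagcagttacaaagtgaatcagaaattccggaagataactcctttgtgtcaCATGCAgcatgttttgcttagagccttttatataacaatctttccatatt
OLEO3 held a pair of RY elements, at 70 and 59 bases before the gene start, set between G-boxes at 169 and 40 bases before it. In LCR16 the capitals are 3 overlapping RY matches, read on both strands. AT1G71250 held RY elements at 129 and 50 bases before the start, the first of which overlaps a match to ATGTA.

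Over the 54 members with a window, 7 held an RY element, beside 8.43% of 27443 windows of all annotated genes of the same length. The letters ATGTA, the core of EIN3 sites, were in 29 member windows, or 53.7%, beside 52.0% of all windows. Among the 35 the share was 42.9%. GCCGCC, the core of the sites of ethylene response factors, was in 1 member window, or 1.85%, beside 1.87%. CACGTG was in 5.56% of member windows and 6.49% of all, CCAAT in 40.7% and 46.0%, AAACCCTA (telo box) in 5.56% and 4.49%, and the TATA box letters TATAAA in 44.4% and 47.3%. The site II element TGGGCC was in 7 member windows and in 13.7% of all. Each motif was searched on both strands. A match is only a run of letters, and no binding was measured.

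Hormone genes among the members were GA20OX3, SMAP1 and IAA33. GA20OX3 (AT5G07200), an oxidase of gibberellin biosynthesis, had 343 and 373 FPKM in the wild-type cross, 309 and 347 in the paternal hybrid, 303 and 311 in the maternal hybrid, and 224 and 256 in the mutant cross. Its replicates lay close together within each cross, and it was among the 3 members nearest the limit. SMAP1 (AT4G13520), a small acidic protein required for the response to the synthetic auxin 2,4-D, had 336 and 301 FPKM in the wild-type cross, 251 and 230 in the paternal hybrid, 300 and 255 in the maternal hybrid, and 213 and 204 in the mutant cross. Its hybrids did not overlap, and the cross with the wild-type mother was the lower. IAA33 (AT5G57420), of the Aux/IAA family of auxin response regulators, had 24.2 and 39.0 FPKM in the wild-type cross and 15.4 and 11.2 in the mutant cross, on 5 to 21 fragments per library.

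Among the members were 2 transcription factors. DOF6 (AT3G45610), of the Dof zinc-finger family, had 188 and 264 FPKM in the wild-type cross, 176 and 199 in the paternal hybrid, 152 and 171 in the maternal hybrid, and 97.8 and 140 in the mutant cross. NF-YC12 (AT5G38140), a subunit of the CCAAT-binding NF-Y complex, had 210 and 217, 196 and 192, 186 and 183, and 135 and 151 FPKM in the same order. In both genes the maternal hybrid libraries lay below the paternal hybrid libraries, as in 21.5% of all genes with a mean of at least 10 FPKM. The replicates of NF-YC12 were the closer together.

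Transport and membrane signalling genes made up another 6 members. GDU3 (AT5G57685), a glutamine dumper protein that promotes amino acid export, had 196 and 198 FPKM in the wild-type cross, 162 and 175 in the paternal hybrid, 157 and 151 in the maternal hybrid, and 97.7 and 142 in the mutant cross. All 4 of its hybrid values lay between, with those of the maternal hybrid the lower. PIP2;8 (AT2G16850), a plasma membrane aquaporin, was low, at 23.2 and 34.9 FPKM in the wild-type cross and 8.77 and 14.8 in the mutant cross. The membrane signalling genes had ratios of 0.477 to 0.58. They were CKB1, a regulatory subunit of casein kinase 2, QKY, a C2-domain membrane protein of tissue patterning, and the leucine-rich repeat genes AT5G51560 and AT5G23400.

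The remaining 36 members had no role in common and include the 9 genes with a library at 0. AT5G63500, a putative transmembrane protein and the last of the 10 most abundant with SMAP1, had 324 and 343 FPKM in the wild-type cross, 299 and 231 in the paternal hybrid, 280 and 326 in the maternal hybrid, and 218 and 221 in the mutant cross. CYP98A9 (AT1G74550), a cytochrome P450 of phenolamide synthesis, had the lowest ratio among the 35 genes with at least 10 fragments throughout. Its values were 32.2 and 58.4, 27.5 and 32.8, 23.6 and 27.8, and 13.1 and 21.3 FPKM in the same order of crosses. AT5G16235, a long non-coding RNA gene, had 16.8 and 21.1 FPKM in the wild-type cross, 13.1 and 15.9 in the paternal hybrid, 10.9 and 7.39 in the maternal hybrid, and 4.05 and 8.61 in the mutant cross. AT2G40710, annotated as a hemolysin-III related membrane protein, ran from 7.80 and 23.9 FPKM to 4.13 and 5.16, on 1 to 8 fragments. Products named only as unknown or hypothetical made up 17.7% of the 62, beside 6.1% of annotated genes with a mean of at least 10 FPKM. Among the members with such products, only AT2G37480 and AT2G21195 had at least 10 fragments in every library, so that share rests mostly on thinly counted genes. No member was a ribosomal protein gene, beside 2.6% of the annotated genes. By product words, kinases made up 3.2% of members beside 4.0%, transporters 0.0% beside 2.5%, and transferases or synthases 4.8% beside 6.9%. Oxidoreductases made up 4.8% beside 3.6%, and oleosins or caleosins 1.6% beside 0.1%. These words catch only part of the role groups above, which were not set against a background.

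**Figure D2:**
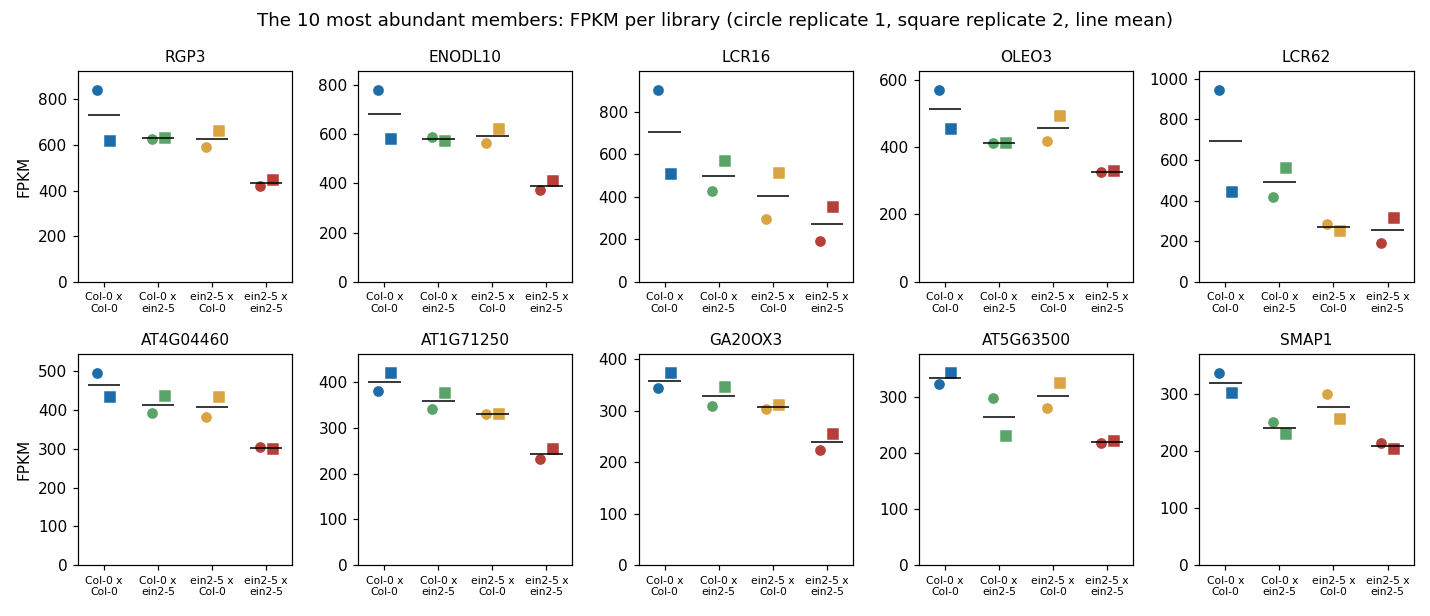
FPKM per library in the 4 crosses for the 10 most abundant of the 62 genes (linear axes from 0; circle, replicate 1; square, replicate 2; line, mean of 2 libraries). In RGP3 the mutant cross sits at 420 and 447 with all other libraries at 592 or above, while LCR16 and LCR62 show a wide gap between the replicates of Col-0 x Col-0.

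The limit of the rule cut through a continuum. The members nearest to it were AT2G21195, AT5G25330 and GA20OX3, for which the higher mutant library was compared with the lower wild-type library. Their ratio equalled the limit to 3 digits in AT2G21195 and was 0.749 in AT5G25330 and 0.744 in GA20OX3. Just outside lay the cyclin gene CYCB1;4 at 0.7505 and, both at 0.7515, PME5, a pectin methylesterase, and the chaperone gene HSC70-1. CYCB1;4 had 93.9 and 82.4 FPKM in the wild-type cross and 61.6 and 61.8 in the mutant cross. In all, 98 genes met the rule when the position of the hybrids was left aside.

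Expressed as log2(FPKM + 1), the mutant cross was lower than the wild-type cross by a median of 0.86 over the 53 genes, where the median over all 19719 genes tested was 0.12 in the other direction. Over the 61 members that passed the filter on low values, single-fragment genes included, the median was -1.0, and AT5G64401 did not pass. Single genes ranged from -0.48 ± 0.16 (SE) in AT2G21195 to -2.22 ± 0.59 in AT4G17718 among the 53, with -0.73 ± 0.18 in RGP3, -0.64 ± 0.16 in OLEO3 and -0.58 ± 0.14 in GA20OX3. Dividing each library by a median-ratio factor moved the median of all genes to 0.02 and that of the 53 to -0.96, so relative to all genes the 53 lay at -0.97 before and after. Within the mutant cross, replicate 2 was the higher library in 41 of the 53, beside 57.1% of all genes with a mean of at least 10 FPKM. The median deviation of the 53 genes from their own mean was 0.31 and 0.42 in the wild-type libraries, 0.02 and 0.16 in the paternal hybrid, -0.06 and 0.04 in the maternal hybrid, and -0.6 and -0.32 in the mutant cross. The mutant libraries thus differed from each other by more than the 2 hybrid directions did.

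**Figure D3:**
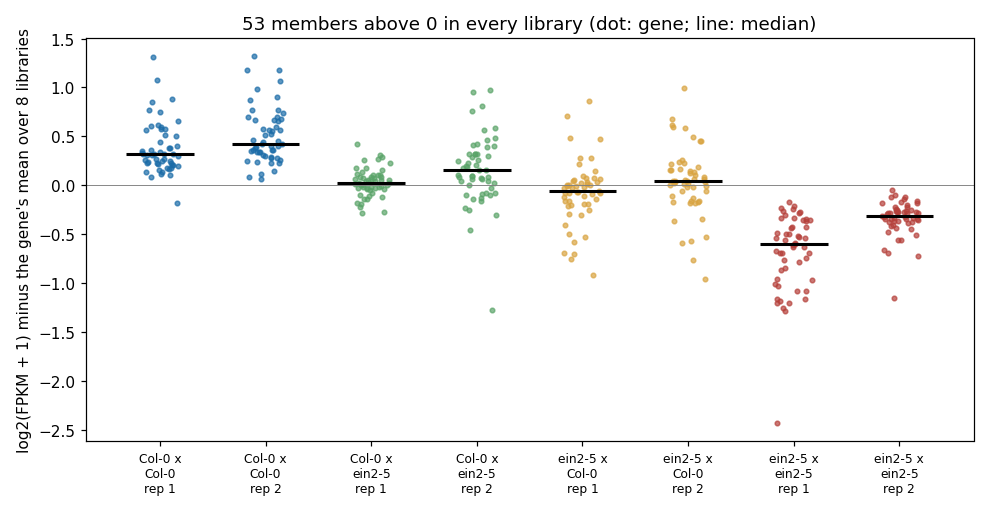
Deviation of log2(FPKM + 1) from each gene's own mean over 8 libraries, 1 dot per gene for the 53 members above 0 in every library, with the median of each library as a line. The 4 hybrid libraries have medians from -0.06 to 0.16, and the mutant libraries lie at -0.6 and -0.32; the order of the 2 same-genotype crosses was set by the rule.

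The rule treats both hybrid crosses alike, so which of them was the lower is a question it did not decide. It did hold both hybrid means between those of the same-genotype crosses, which limits how far apart the hybrids can lie. The number of members called between them is therefore partly set by the rule. Comparing them asks whether a mutant mother and a mutant father leave different levels. Among the 53 genes above 0 throughout, the maternal hybrid mean was below the paternal hybrid mean in 33, and among the 35 better counted genes in 23. Over all genes with a mean of at least 10 FPKM the share was 52.6%. Such counts moved with library scaling. On the log2 scale the maternal hybrid was lower in 37 of the 61 fitted members, in 31 after median-ratio scaling and in 34 after quantile normalization. The median over the 53 minus that over all genes was -0.06, -0.06 and -0.13 in the same order. The 2 libraries of the maternal hybrid lay below both of the paternal hybrid in 14 of the 53, where 21.5% of all such genes did so, and above both in 4, where 17.4% did. In limma's test none of the 61 members was called between the hybrids at an adjusted p under 0.05, and 0.0% of all 19719 genes was. Without adjustment 595 genes, or 3.02%, had a p under 0.05, and 1 of them was a member. The median difference, maternal minus paternal hybrid, was -0.08 on the log2 scale over the 53 and -0.03 over the 61, beside -0.02 over all genes, and without maternal hybrid replicate 1 it was 0.02 over the 61. With 2 libraries per cross and a difference limited by the rule, the hybrids were not told apart in any member. An order by the number of mutant copies was shown for none of them.

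The member with p under 0.05 was AT3G52561, a protein of unknown function. It had 53.8 and 39.2 FPKM in the wild-type cross, 28.7 and 50.6 in the paternal hybrid, 17.7 and 26.0 in the maternal hybrid, and 19.9 and 19.6 in the mutant cross, on 6 to 20 fragments per library. The difference between its hybrids was -0.80 ± 0.31 (SE) on the log2 scale, with a limma p of 0.032 and an adjusted p of 1.0. LCR62 had the most negative value of the genes above 0 throughout, at -0.85 ± 0.37 (SE; limma adjusted p = 1.0), followed by AT3G52561 and by AT5G16235 at -0.62 ± 0.37. The most positive were ATMG00160, one of the unlisted organelle genes, at 0.85 ± 0.54, and AT1G30020, of unknown function, at 0.75 ± 0.46. AT1G30020 had 34.1 FPKM in maternal hybrid replicate 2, above its highest wild-type library at 31.4, on at most 10 fragments. Differences beyond these, from -3.54 in AT2G35743 to 3.45 in AT4G26055, were each the presence or absence of 1 fragment. Standard errors were smaller in the abundant genes. The difference was 0.00 ± 0.18 in RGP3, 0.03 ± 0.18 in ENODL10, 0.14 ± 0.16 in OLEO3, -0.09 ± 0.14 in GA20OX3, -0.07 ± 0.12 in NF-YC12 and 0.20 ± 0.14 in SMAP1.

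How far each hybrid stood along the step was expressed as a percent of the way from the wild-type mean (0%) to the mutant mean (100%). Over the 53 genes used for medians above, the median was 46.3% for the paternal hybrid and 53.8% for the maternal hybrid. Over the 35 better counted genes the medians lay further apart, at 37.3% for the paternal hybrid and 50.2% for the maternal hybrid. The positions ranged widely between genes. RGP3 stood at 34.0% and 34.4%, GA20OX3 at 25.4% and 43.5%, DOF6 at 36.0% and 60.2%, and LCR16 at 47.8% and 69.2%, each with the paternal hybrid first. OLEO3 at 53.6% and 30.2% and SMAP1 at 71.2% and 37.5% were ordered the other way. AT3G46890, annotated as a maternal effect embryo arrest protein, stood at 54.3% and 87.8%. The rule itself holds every position between 0% and 100%, and each position carries the error of 3 means of 2 libraries. All 4 hybrid libraries, and not the means alone, lay between the libraries of the same-genotype crosses in 12 of the 35.

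**Figure D4:**
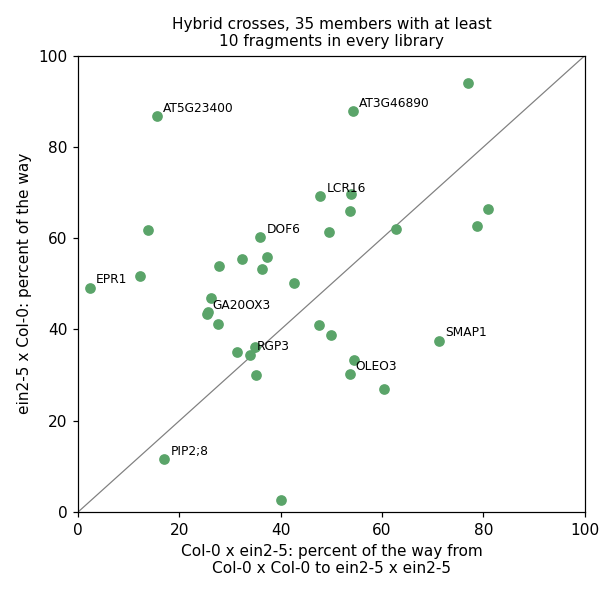
Position of the ein2-5 x Col-0 mean (vertical axis) against that of the Col-0 x ein2-5 mean (horizontal axis), each as a percent of the way from the Col-0 x Col-0 mean to the ein2-5 x ein2-5 mean, for the 35 genes with at least 10 fragments in every library; the line marks equal positions. Of the points, 23 lie above the line, where ein2-5 x Col-0 had the lower mean. Over all genes with a mean of at least 10 FPKM, 52.6% had the lower mean in that cross.

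The interaction asks whether the step from a mutant father differs between a wild-type and a mutant mother. It is built from all 4 crosses, including the values the rule chose on, so for the members it is a description from which nothing is read. In the 35 better counted genes it ran from -0.95 in PIP2;8 to 0.47 in AT3G15395 on the log2 scale. In limma's test 0.0% of all 19719 genes was called, and 662 genes (3.36%) had an unadjusted p under 0.05.

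Members belonged to only 2 of the gene lists drawn up for this tissue and mutant. Of 5 oil body genes in the table, OLEO3 was the only member. OLEO2, the most abundant non-member of that list, had 38.3 and 36.8 FPKM in the wild-type cross, 37.2 and 36.1 in the paternal hybrid, 65.9 and 44.8 in the maternal hybrid, and 15.2 and 18.2 in the mutant cross. It failed the rule because its maternal hybrid mean lay above the wild-type mean. The difference between the mutant and the wild-type cross was -1.12 ± 0.21 in OLEO2 (limma adjusted p = 0.31), -0.91 ± 0.33 in OLEO4 (adjusted p = 0.42) and -0.13 ± 0.39 in OLEO1 (adjusted p = 0.93), and HSD1 was at 0 in all libraries. Of 9 tested genes of gibberellin and abscisic acid metabolism, GA20OX3 was the only member. ABA2, an abscisic acid biosynthesis enzyme and the most abundant other gene of that list, was at 54.7 to 65.7 FPKM in all 8 libraries, with a difference of -0.07 ± 0.15 (limma adjusted p = 0.89). Of the 8 tested non-members 3 were lower in the mutant cross, and their median was 0.19. GAMT1, a gibberellin methyltransferase, and NCED6, of abscisic acid synthesis, both chosen after their values were seen, had differences of 1.43 ± 0.26 (limma adjusted p = 0.30) and 0.91 ± 0.21 (limma adjusted p = 0.33).

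No member came from the other lists, for which the difference between the mutant and the wild-type cross is given as the number of non-members lower in the mutant cross and the median. Over all tested genes 38.0% were lower and the median was 0.12. Among the lists tied to ethylene, 7 of 13 genes of perception and signalling besides EIN2 were lower (median -0.25), and 2 of 7 responsive transcription factors were (0.39). Among the lists tied to the seed, 2 of 3 storage protein genes (-0.43), 14 of 17 genes of oil synthesis (-0.24), 6 of 9 maturation regulators (-0.21) and 4 of 7 genes of sugar transport (-0.41) were lower. The counts were 10 of 16 for cell cycle and cytokinesis (-0.10), 1 of 3 for synaptotagmins besides SYTA (0.16) and 12 of 13 for photosynthesis (-0.25). The summed level of the photosynthesis genes overlapped between the crosses, at 7701 and 4905 FPKM in the wild-type libraries and 5914 and 4523 in the mutant libraries, and the high value was that of the shallowest library. None of the non-members of any list was called by limma between the same-genotype crosses or between the hybrids.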

How the data were processed

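RNA of laser-captured endosperm was sequenced in 8 libraries of 4 crosses. The authors deposited FPKM for 34133 genes in a single table with 8 columns, of which 0 were left unused. Per the submitters' processing notes, TopHat2 2.1.1, SAMtools 1.5 and Cufflinks 2.2.1 were used with the TAIR10 genome; their options, and whether strand was kept, are not given in the sources used here, so overlapping genes on opposite strands and close paralogs such as the LCR genes may share fragments. No counts accompany the values. Relative depth was estimated from genes listed at low values in at most 3 libraries, where values step by single fragments. Fragments per member came from such steps in 30 genes and from transcript length in 30, and could not be estimated for 2. These estimates cover counting error only.

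Values were analysed as log2(FPKM + 1), which understates changes of low genes. Genes with at least 1 FPKM in at least 2 libraries (19719) were fitted with limma 3.58.1 in R 4.3.3 (mean of each cross, eBayes with a variance trend, two-sided, 4 residual and 3.72 prior degrees of freedom), with Benjamini-Hochberg adjustment over all of them and a threshold of 0.05. The code was tested on simulated data. Tables were handled with Python 3.11.15 and pandas 2.3.3. Symbols, lengths and promoters came from RefSeq TAIR10.1, which was used for its own sequence and for names; the deposited table has no coordinates.

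The members, the lists and the tests were chosen with earlier results of these data known. Genes named by rule were the 12 members with the lowest ratio of the mutant to the wild-type mean, the 10 most abundant, the 4 most negative and 4 most positive between hybrids, the 3 nearest the limit on either side, members in a list and the most abundant other gene of such a list. Other settings tried were the pseudocount, the filter on low values, library scaling, the variance trend, a replicate block, leaving out each library and the limits of the rule.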

Additional observations from a re-analysis of the deposited data

How the results depend on the processing

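No member was called between the hybrids under any setting tried. Over all genes, the number called between the hybrids was 0, but 1 with a pseudocount of 0.1, 4 without the variance trend and 0 to 5 when a library was left out. For the interaction it was 0, and 0 to 3 when a library was left out. Between ein2-5 x ein2-5 and Col-0 x Col-0 it was 2, but 0 with a pseudocount of 0.1, 0 among genes with a mean of at least 10 FPKM, 4 with median-ratio scaling, 11 without the variance trend and 0 to 33 when a library was left out, with 33 without Col-0 x Col-0 replicate 2. With a replicate block the 3 counts were 0, 0 and 0. The replicate numbers did not pair the libraries: deviations from the cross means correlated by 0.009 to 0.136 between crosses. A cross left with 1 library was assumed to vary like the others. Over the 61 fitted members, the median difference between the same-genotype crosses was -1.0, -0.79 with a pseudocount of 5, and -1.05 to -0.75 when a library was left out. Between the hybrids it was -0.03, and -0.11 to 0.02 when a library was left out, the sign turning without ein2-5 x Col-0 replicate 1. The rule gave 62 genes, 181 after median-ratio scaling (all 62 among them; the rising rule went from 525 to 340, a setting added after seeing the data), 101 with a mean of at least 5 FPKM and 41 with a ratio limit of 0.7. Of 416 values of the named members under other settings, 398 between the hybrids and 379 between the same-genotype crosses moved by less than 1 SD between replicates; the sign turned in 33 and 2. The causes of these changes were not tested. Depth limits the genes of short transcripts: 12 members had under 10 fragments in every library.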
